A study of Caenorhabditis elegans with 2 samples.

Results

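The genes for translation initiation and elongation factors were examined in a ChIP-seq study of ZK546.5 in Caenorhabditis elegans. They were chosen by symbol, as protein-coding genes of the Ensembl annotation whose symbol begins with eef, eif, eft, ife, ifg or iff, a hyphen and a digit. The rule gave 39 genes of 19985 protein-coding genes. Of the 39, 6 were elongation factor genes (all with eef symbols; no gene had an eft symbol) and 33 were initiation factor genes. The rule uses names only, but this gene family was chosen for study with earlier results of these data known. The material was whole worms at the L4 larval stage, males and females pooled, of strain OP231 (unc-119(ed3) III; wgIs231). The strain carries the unc-119(ed3) mutation and a stable transgene in which ZK546.5 ends in GFP and FLAG. There was 1 group of 2 biological replicates and no comparison group, so no difference between conditions could be tested. Whole animals mix all tissues, and binding in a few cells cannot be told apart from weaker binding in many.

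Translation factors are the proteins that help the ribosome through its work. Initiation factors bring the start codon, the initiator tRNA and both ribosomal subunits together: eIF4E binds the cap of the message, eIF4G and eIF3 link it to the small subunit, eIF2 carries the initiator tRNA and eIF2B recharges eIF2 with GTP. Elongation factors then act at every codon. The protein eEF1A delivers each aminoacyl-tRNA, eEF1B and eEF1G recharge eEF1A, and eEF2 moves the ribosome along by a codon. The factor eIF5A (iff genes in the worm) was named for initiation and is also known to act in elongation.

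Among the 39 genes, 3 had a summit of the authors' IDR set within 1000 bp of their start: eef-2, eef-1A.1 and iff-2. The IDR (irreproducible discovery rate) is a score of how well the replicates repeat a region's rank, and regions that pass it form this set. The sequences under the summits of eef-1A.1 and iff-2 are shown because these summits are among the strongest at the genes described here. That of eef-1A.2 is shown because its gene encodes the same protein as eef-1A.1 and had no such region. Each is read 5′ to 3′ on the strand of its gene, from the RefSeq WBcel235 genome (ce11), around the pooled-list summit and outside the exons of protein-coding genes. Capitals mark CCTGCACA, CCTGCA (its first 6 bases) and ACCGTA on either strand, so that CCTGCACA also appears as TGTGCAGG and ACCGTA as TACGGT.
eef-1A.1, chrIII:6971936-6972235, minus strand: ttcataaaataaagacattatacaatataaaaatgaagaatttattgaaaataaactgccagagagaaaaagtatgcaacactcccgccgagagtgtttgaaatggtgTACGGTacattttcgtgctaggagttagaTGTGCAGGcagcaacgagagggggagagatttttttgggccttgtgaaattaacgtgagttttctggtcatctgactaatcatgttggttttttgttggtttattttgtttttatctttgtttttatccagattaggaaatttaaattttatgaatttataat
iff-2, chrII:8561368-8561573, minus strand: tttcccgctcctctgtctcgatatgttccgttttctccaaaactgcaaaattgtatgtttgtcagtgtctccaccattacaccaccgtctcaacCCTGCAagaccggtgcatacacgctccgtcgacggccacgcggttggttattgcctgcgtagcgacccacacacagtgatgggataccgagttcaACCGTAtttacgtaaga
eef-1A.2, chrX:7823133-7823432, plus strand: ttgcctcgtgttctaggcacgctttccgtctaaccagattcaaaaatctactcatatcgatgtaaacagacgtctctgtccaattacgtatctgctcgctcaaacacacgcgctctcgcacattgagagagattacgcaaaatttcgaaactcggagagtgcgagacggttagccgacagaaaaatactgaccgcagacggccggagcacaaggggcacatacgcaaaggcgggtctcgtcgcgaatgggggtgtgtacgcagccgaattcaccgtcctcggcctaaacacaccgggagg

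Every list held a signal value for each region, set by the authors' peak caller on a scale for which the sources used here give no unit. It is used only within a list, as a rank (1 is the highest signal) or as a ratio to that list's median. The list from pooled replicates and each replicate list held 30000 regions, peaks and background together. Their median signals were 12.7 in the pooled list, 8.98 in replicate 1 and 6.39 in replicate 2. The IDR set held 92 regions, which were the 92 highest of the pooled list, with 36.1 as its lowest signal. The lists give regions without reads, so sample depth is unknown and no counting error can be given. A gene was given the strongest region whose summit lay within 1000 bp of the gene's annotated start. Over all protein-coding genes 49.1% had such a summit in the pooled list and 0.525% had one in the IDR set.

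The 3 genes with an IDR region made up 7.69% of the 39, beside the 0.525% of all protein-coding genes. By class they were 2 of 6 elongation factor genes (33.3%), eef-2 and eef-1A.1, and 1 of 33 initiation factor genes (3.03%), iff-2. Counting iff-2 and its paralogue iff-1 with the elongation factors gave 3 elongation factor genes and 0 initiation factor genes with an IDR region. With 6 elongation factor genes the shares rest on single genes, and genes are not replicates, so no test was made of the classes.

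The gene eef-2 encodes eEF2, the translocase of elongation. It lies on chromosome I from 9163531 to 9166952 on the plus strand. Its region, from 9163430 to 9163613, had a signal of 183 and rank 22 in the pooled list. In replicate 1 the signal was 97.8 at rank 27, and in replicate 2 it was 84.7 at rank 21. These values were 10.9 and 13.3 times the medians of the replicate 1 and replicate 2 lists. The summit lay 10 bp upstream of the start in replicate 1 and 11 bp upstream in replicate 2, so both replicates placed it at the same point. The next start was that of clsp-1, which encodes a claspin of the replication checkpoint, at 252 bp. The eef-2 and clsp-1 genes stand head to head, 264 bp apart, and the summit lay between them.

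The gene eef-1A.1 encodes eEF1A and lies on chromosome III from 6970026 to 6971712 on the minus strand. Its region, from 6972007 to 6972144, had a signal of 157 and rank 24 in the pooled list. The signal was 86.6 at rank 31 in replicate 1 and 69.2 at rank 22 in replicate 2, which were 9.65 and 10.8 times the list medians. Here too both replicates gave nearly the same point, 387 bp upstream in replicate 1 and 379 bp upstream in replicate 2. This summit was not closest to eef-1A.1. It lay 1 bp from the start of the microRNA gene cel-mir-5549 and 167 bp from that of rfc-4, which encodes a subunit of the clamp loader of DNA replication. The eef-1A.1 and rfc-4 genes are head to head, 540 bp apart, and the summit fell in that gap. With each region given only to the nearest start of any gene type, eef-1A.1 had no IDR region. The elongation factor count was then 1, and 2 of the 39 genes (5.13%) had an IDR region, beside 0.24% of all protein-coding genes. Which of these genes the region at rank 24 belongs to was not tested. Another pooled-list summit, 888 bp downstream of the eef-1A.1 start, had a signal of 12.9 at rank 14365.

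The gene eef-1A.2 is the other source of eEF1A. Its values were far below those of the upstream region given to eef-1A.1, whose gene of origin was not tested. They were close to the other pooled-list region of eef-1A.1, 888 bp downstream, with a signal of 12.9 at rank 14365. The coding sequences of eef-1A.1 and eef-1A.2 were 94% identical over 1389 bases, and the proteins they encode were 100% identical. On X, from 7823654 to 7825769, eef-1A.2 had a pooled-list region 371 bp upstream with a signal of 12.7 and rank 15033. That signal was 0.999 of the list median. The summit lay nearer to the start of R03G5.8, at 242 bp, and which gene the region belongs to was not tested. With each region given only to the nearest start, eef-1A.2 had no pooled-list region. Under the main rule, replicate 1 listed no summit within 1000 bp of eef-1A.2. Replicate 2 listed a signal of 6.37 at rank 15092, 556 bp upstream. The upstream pooled-list regions of both genes lay outside the coding sequences in which the genes are alike. The printed window of eef-1A.2 was 52.7% G and C and held none of the marked words, while that of eef-1A.1 was 32.3% G and C and held them all. The words were taken from the strongest peaks of these data, eef-1A.1 among them. Their presence at eef-1A.1 is therefore no independent evidence of a difference between the genes. How the authors treated reads that map to several places is not stated in the sources used here.

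The remaining elongation factor genes encode the parts that recharge eEF1A, and these had low values or none. The gene eef-1B.1 had a pooled signal of 12.4 at rank 16555, in its own exon 190 bp downstream of the start. That summit lay nearer to the start of F54H12.9, at 131 bp. In replicate 1 the value of eef-1B.1 was 8.62 at rank 16855, and replicate 2 listed no summit. For eef-1B.2 and eef-1G no list had a summit within 1000 bp. The nearest pooled summit to eef-1B.2 lay 2284 bp away at rank 231, with a signal of 26.8, and the nearest to eef-1G lay 4647 bp away at rank 2715. So 2 of the 6 elongation factor genes stood in the top 31 of each list, and the other 4 were at rank 15033 or lower, or were not listed. The 4 with a pooled summit had a median rank of 7528.5, which falls in the gap between these and describes none of them. In the replicate lists the median rank was 31 over 3 genes in replicate 1 and 22 over 3 genes in replicate 2. The 24 initiation factor genes with a pooled summit had a median pooled rank of 8405.5, beside 12764 over all protein-coding genes with one.

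**Figure D1:**
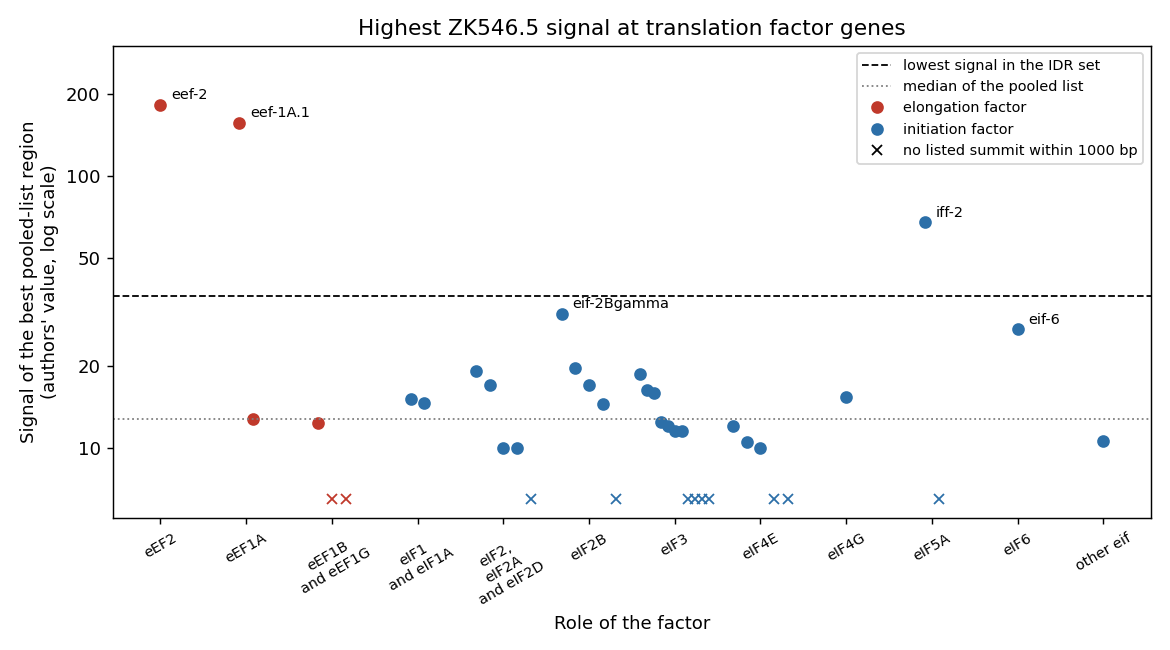
Signal of the strongest pooled-list region within 1000 bp of the start of each of the 39 genes, by role, on a log axis; crosses are genes with no listed summit there. The genes eef-2, eef-1A.1 and iff-2 (183, 157 and 67.5) lie above the dashed line at 36.1, the lowest signal of the IDR set, and the other genes lie below it, most of them near the dotted list median of 12.7.

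The gene iff-2 encodes eIF5A and lies on chromosome II from 8559375 to 8561367 on the minus strand. Its region, from 8561274 to 8561573, had a signal of 67.5 and rank 48 in the pooled list. In replicate 1 the signal was 40.2 at rank 50, and in replicate 2 it was 27.2 at rank 53. These were 4.48 and 4.26 times the list medians, below the ratios of eef-2 and eef-1A.1 in each replicate. The summit was 99 bp upstream in replicate 1 and 42 bp upstream in replicate 2. The start of iff-2 itself was the nearest, at 57 bp in the pooled list, and the next coding start, F54C9.14, was 878 bp away. Its paralogue iff-1, which is needed in the germline, had no pooled or replicate 2 summit within 1000 bp. Replicate 1 listed iff-1 at rank 23918, below the list median.

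Below the IDR set came eif-2Bgamma and eif-6, the strongest pooled-list regions at initiation factor genes apart from iff-2. The gene eif-2Bgamma encodes the gamma subunit of eIF2B and had a pooled signal of 31.1 at rank 122. It ranked 337 in replicate 1 and 1673 in replicate 2, with signals of 18.6 and 11.0. The summit lay 879 bp upstream, in an exon of the small RNA gene sup-39 and of the non-coding RNA gene C15F1.14, and 24 bp from the start of mir-1831. The gene eif-6 encodes the factor that holds the large ribosomal subunit apart from the small. It had a pooled signal of 27.3 at rank 208, 425 bp upstream, and ranked 1000 in replicate 1 and 487 in replicate 2, with signals of 15.9 and 13.4. That summit lay nearer to pbs-2, a proteasome subunit gene, at 241 bp, and pbs-2 stands head to head with eif-6. On the pooled list iff-2 was thus the last of the 39 inside the IDR set, at 67.5, and eif-2Bgamma the first outside it, at 31.1.

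The core eIF3 subunit gene eif-3.C stood high in 1 replicate alone. Replicate 1 listed a region 224 bp upstream of its start with a signal of 24.6 at rank 101. In replicate 2 and in the pooled list no summit lay within 1000 bp, and the nearest were 4050 bp and 5951 bp away. A position among the top 1000 regions of 1 replicate only was found for 2 of the 39 genes (5.13%), eif-3.C and eif-2Bgamma, beside 3.84% of all protein-coding genes.

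**Figure D2:**
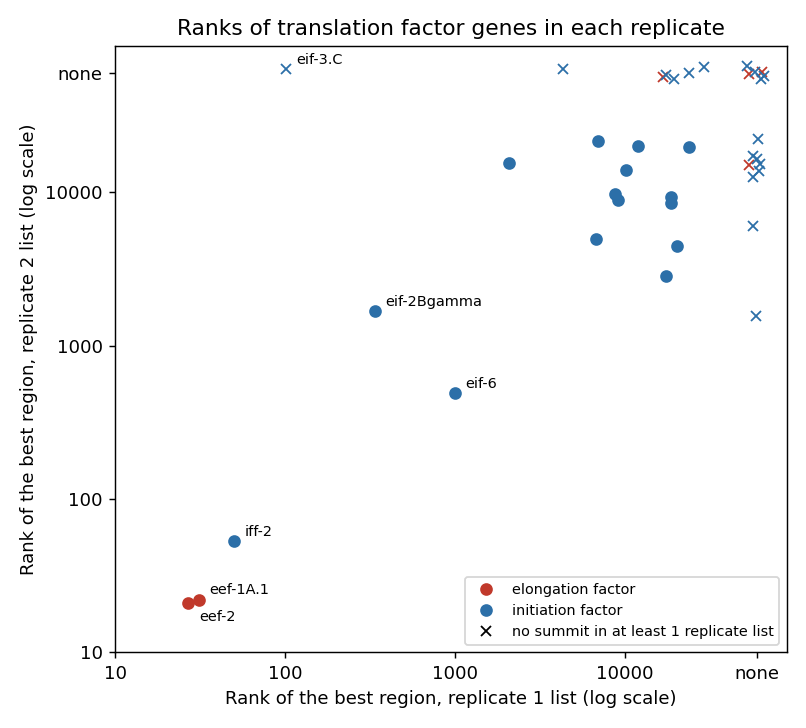
Rank of the best region within 1000 bp of each gene in the replicate 1 list against that in the replicate 2 list, both on log axes (1 is the highest signal); crosses at "none" mark genes without a listed summit in that replicate, spread slightly so that they can be seen. The genes eef-2, eef-1A.1 and iff-2 hold ranks from 21 to 53 in both replicates, while eif-3.C has rank 101 in replicate 1 and none in replicate 2.

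Other initiation factor genes had pooled signals below the IDR set and nearer to the list median, but some ranked well above the middle of the list. Within the top 3000 of the pooled list were 6 of 33 initiation factor genes (18.2%), beside 6.61% of all protein-coding genes. These 6 include iff-2, eif-2Bgamma and eif-6. Over all protein-coding genes 49.1% had a pooled summit at any rank, and the counts by role that follow stand beside that share. Among the 11 eIF3 genes covered by the symbol rule, which encode subunits of the scaffold that binds the small subunit, 7 had a pooled summit. Their pooled signals ran from 11.5 to 18.7, with eif-3.F highest at rank 2523 and eif-3.B next at 16.3. For eif-3.D and eif-3.L no list had a summit within 1000 bp, and eif-3.G was listed in replicate 2 alone. The 5 genes of eIF2, eIF2A and eIF2D had 4 with a pooled summit, from 9.95 at eif-2D to 19.2 at eif-2A, and eif-2beta had none in any list. Of the 5 eIF2B genes 4 were listed, and after eif-2Bgamma the highest was eif-2Balpha at 19.7 and rank 1898. Its summit lay in an intron of the neighbour mut-7, 245 bp from the start of mut-7 and 984 bp from that of eif-2Balpha. The gene eif-2Bepsilon was in no list.

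The genes of the cap-binding complex covered by the symbol rule were no higher. Factor genes under other symbols are not included here. The eIF4E genes ife-1, ife-2 and ife-5 had pooled signals of 10.01, 12.1 and 10.5, all below the list median of 12.7. The other 2, ife-3 and ife-4, had no pooled summit within 1000 bp. In the replicate lists ife-3 appeared in replicate 2 alone, at 5.39, and ife-4 in both, at 10.4 in replicate 1 and 7.55 in replicate 2. The eIF4G gene ifg-1 had a pooled signal of 15.4 at rank 7209, 18 bp downstream of its start, and no listed summit within 1000 bp in replicate 2. The start-codon factors eif-1 and eif-1.A had 14.6 and 15.1. The gene eif-4A3, whose product is known for the exon junction complex, had 10.6 at rank 25326.

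In all, 28 of the 39 genes had a pooled summit within 1000 bp (71.8%), as 4 of 6 elongation factor genes and 24 of 33 initiation factor genes, beside 49.1% of all protein-coding genes. With each region given only to the nearest start the count was 18 (46.2%), beside 41.8% of all protein-coding genes, so that share was near the background. In replicate 1 the count was 24, beside 49% of all protein-coding genes, and in replicate 2 it was 26, beside 49.9%. All 3 of these lists had a summit at 16 of the genes, beside 22.8% of all protein-coding genes. Of the 11 without one, 5 had a summit in a replicate list and 6 had none in any of the 3 full lists. Those 6 (15.4%) were eef-1B.2, eef-1G, eif-2Bepsilon, eif-2beta, eif-3.D and eif-3.L, beside 25.3% of all protein-coding genes. The 25 genes with a pooled summit and no IDR region had ratios to the list median from 0.781 to 2.44, with a median of 1.14. Of these, 13 were above the list median and 2 were above 2 times it, eif-2Bgamma and eif-6. The median splits all regions of the list evenly, and 13 of 25 is close to an even split. No share over all protein-coding genes is given for these 2 counts. A best region among the top 1000 of each replicate list was held by 4 genes (10.3%), eef-2, eef-1A.1, iff-2 and eif-6, beside 0.615% of all protein-coding genes; eif-6 entered at the limit itself in replicate 1, at rank 1000. With each region given only to the nearest start, eef-1A.1 and eif-6 were lost and the count was 2, beside 0.315%. With the top 300 the count was 3, beside 0.475%, and with the top 5000 it was 5, beside 2.07%. The pooled list contains both replicates and the IDR set was made from these lists, so these counts are not independent of each other.

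The position of the summit was repeated within 100 bp between replicates at 6 of the 39 genes, a larger share than over all protein-coding genes. Of the 39, 17 (43.6%) had a summit within 1000 bp in both replicates, beside 27.2% of all protein-coding genes. At 6 of these (15.4% of the 39) the best summits of the replicates lay within 100 bp of each other, beside 5.42% of all protein-coding genes. They were eef-2, eef-1A.1 and iff-2, with gaps of 1, 8 and 57 bp, and eif-3.F, eif-2Balpha and eif-2Bgamma, with gaps of 45, 73 and 88 bp. The 14 genes listed in both replicates without an IDR region had gaps from 45 to 1128 bp, with a median of 246 bp.

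**Figure D3:**
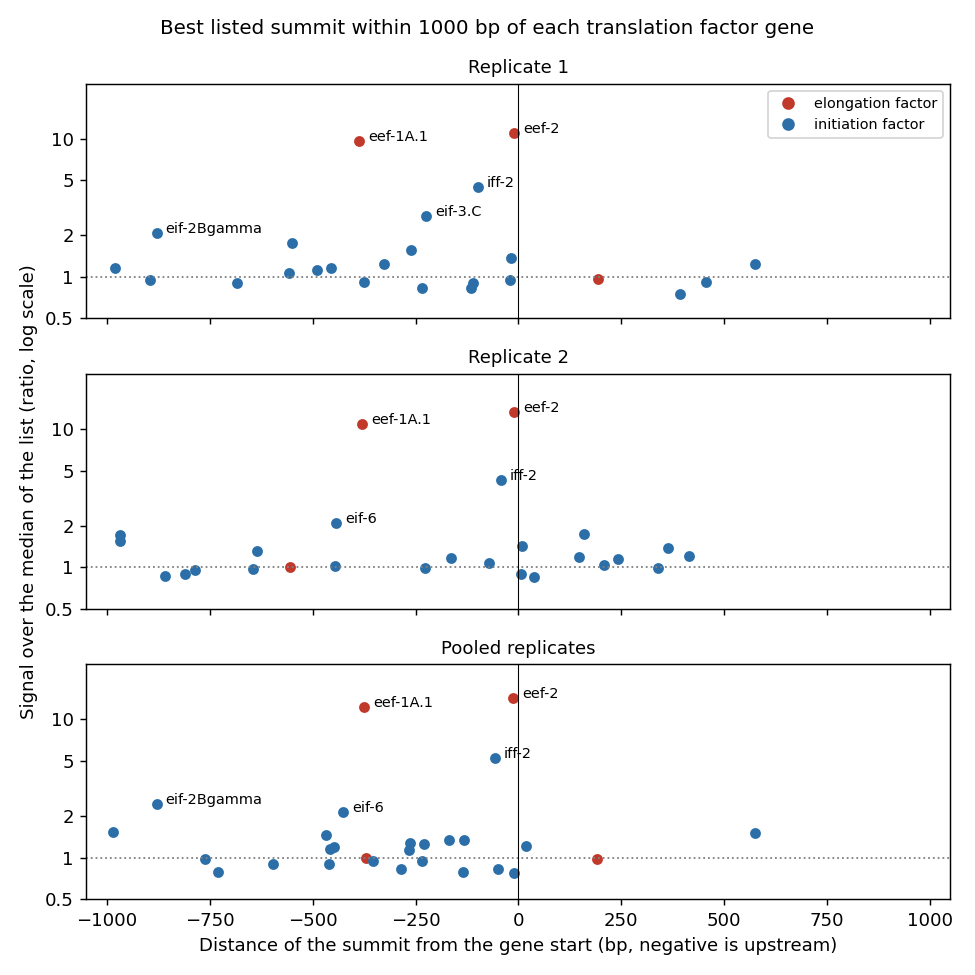
Distance of the best summit from the gene start (bp, negative upstream) against its signal as a ratio to the median of the list, on a log axis, in replicate 1, replicate 2 and the pooled list. The genes eef-2, eef-1A.1 and iff-2 stand at 4 or more times the median at nearly the same place in each panel, and nearly all other genes lie between 0.5 and 2 times the median.

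Most best summits lay upstream. Of the 28 pooled summits 25 were upstream of the start, which is 64.1% of the 39 genes beside 27.2% of all protein-coding genes. The 3 downstream ones were at eef-1B.1, eif-2A and ifg-1. At 16 of the 28 the gene's own start was the nearest of any gene type, and at 12 another start was nearer. No share over all protein-coding genes is given for this count. Head-to-head neighbours were found for 21 of the 39 genes (53.8%), counted from the nearest protein-coding gene wholly upstream, beside 45.4% of all protein-coding genes. The 3 genes with an IDR region were all of this kind, with gaps of 264 bp at eef-2, 540 bp at eef-1A.1 and 934 bp at iff-2. The genes with no listed region included 5 of this kind too, such as eef-1G at 179 bp from ctf-4 and eif-2Bepsilon at 156 bp from piga-1.

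Short words marked in the printed sequences were then counted in 300-base windows around summits. These words were taken from an earlier look at the strongest peaks of these data, which include eef-2 and eef-1A.1, so their presence there is no independent evidence. The word CCTGCACA, on either strand, was in the windows of eef-2, eef-1A.1 and the eIF3 gene eif-3.K, that is in 3 of the 28 genes with a pooled summit. It was in 15 of 73 nuclear IDR windows (20.5%) and in 120 of 29979 nuclear pooled-list windows (0.4%). Its centre lay 11.5 bp from the summit at eef-2, 8.5 bp at eef-1A.1 and 64.5 bp at eif-3.K, where the pooled region had rank 18071. The shorter CCTGCA was also in the windows of iff-2, 52.5 bp from the summit, and ifg-1, and it was in 5.88% of nuclear pooled-list windows.

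The word ACCGTA was in the windows of 3 of the 28 genes (10.7%), a share near the 7.91% of nuclear pooled-list windows. These were the 3 genes with an IDR region. The word was taken from the strongest peaks of these data, so its presence at genes with strong regions, iff-2 included, is no independent evidence. It was in 30 of 73 nuclear IDR windows (41.1%). Its centre lay 0.5 bp from the summit at eef-2, 38.5 bp at eef-1A.1 and 42.5 bp at iff-2. Both CCTGCACA and ACCGTA were in the windows of eef-2 and eef-1A.1, as in 6 of the 73 nuclear IDR windows (8.22%) and 0.0534% of nuclear pooled-list windows. The layout differed between them. At eef-2 both words were on the gene's strand with centres 12 bp apart, and at eef-1A.1 both were on the other strand with centres 30 bp apart; CCTGCACA was the nearer to the gene in each. Within 1000 bp of the start, CCTGCACA was found at 5 of the 39 genes (12.8%), beside 2.98% of nuclear protein-coding genes. Among the 5 were eef-2 and eef-1A.1, whose peaks were in the set the word came from, so this share is no independent evidence. The shorter words were common there: ACCGTA was at 41% of the 39 genes, beside 42.1% of nuclear protein-coding genes, and CCTGCA at 43.6%, beside 37.5%. Of the 5 genes with CCTGCACA, eef-1B.1, eif-2Balpha and eif-3.K had no IDR region.

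Other genes of translation were set beside these. Of 37 further symbols for factors and regulators, 29 were in the annotation, and 1 of the 29 had an IDR region, ifet-1, which encodes a repressor that binds eIF4E. Its signal was 39.02 at rank 81. The same region was that of the ribosomal protein gene rps-1. Of 31 aminoacyl-tRNA synthetase genes 0 had an IDR region, beside 0.525% of all protein-coding genes, and 11 (35.5%) had a pooled summit, beside 49.1%. In the replicate lists they had a summit at 9 genes (29%) in replicate 1, beside 49% of all protein-coding genes, and at 19 (61.3%) in replicate 2, beside 49.9%. Of 81 cytosolic ribosomal protein genes 13 (16.0%) had an IDR region, with signals from 36.6 at rpl-17 to 551 at rps-26. With each region given only to the nearest start, the count was 1 of 81, rpl-41.2, and ifet-1 was lost. The values of eef-2 and eef-1A.1 thus lay inside the range of the ribosomal protein genes, after rps-20 at 243 and on both sides of rps-19 at 177. Within the top 1000 of the pooled list were 2 of 6 elongation factor genes (33.3%), 3 of 33 initiation factor genes (9.09%), 23 of 81 ribosomal protein genes (28.4%) and 0 synthetase genes, beside 2.6% of all protein-coding genes.

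**Figure D4:**
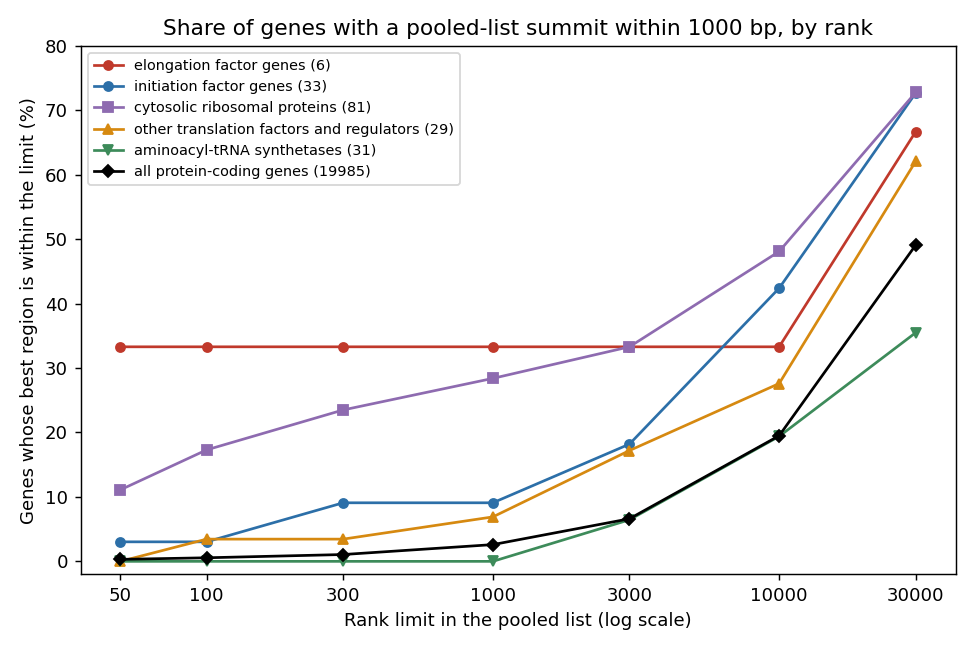
Share of genes (%) in each list whose best pooled-list region within 1000 bp ranks within the limit on the log x axis, with the number of genes in brackets. The elongation factor genes stay at 33.3% (2 of 6) from rank 50 to rank 10000, while the initiation factor genes go through 3.03% at rank 50 and 42.4% at rank 10000; all protein-coding genes are at 0.31% and 19.5%.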

How the data were processed

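The data are region lists in narrowPeak form on ce11, from 2 biological replicates of 1 group. Per the README files that accompany them, the authors made the replicate lists and the pooled list from ChIP and control alignments, and the optimal IDR set from those lists. Which aligner, peak caller, versions and IDR threshold were used is not stated there or in the labels. The deposited signal of a region is the authors' value, on an unstated scale. Lists on ce10 and the control libraries were not used here.

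Genes and starts (the 5′ end of the gene record) came from Ensembl release 115 of WBcel235, the assembly of ce11, and sequence from RefSeq of the same assembly. Summits were matched to starts within 1000 bp with Python 3.11.15, numpy 2.4.6 and pandas 2.3.3; the matching was tested on simulated regions. No test was made: there is 1 group, and genes are not replicates. The genes, lists and words were chosen with earlier results of these data known. Genes named with values are those with an IDR region or a top 1000 region in any list, the strongest outside the IDR set, the eEF, eIF4E, eIF4G and eIF5A families and genes with no listed region; further eIF values were added after they were seen. Alternatives changed the distance, the start, the assignment, the threshold, the class of the iff genes and the replicates used.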

Additional observations from a re-analysis of the deposited data

How the results depend on the processing

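The 3 genes with an IDR region were the same (eef-2, eef-1A.1 and iff-2) with summits within 500 bp or 2000 bp. They were also the same from any annotated transcript start and with any base of the region counted. The top 92 regions of either replicate alone gave these 3 genes too. The IDR set was made from the same lists, so that result is not independent of it. With each region given only to the nearest start of any gene type, eef-1A.1 was lost to cel-mir-5549: the elongation factor count was 1, the count in the top 1000 of both replicates was 2 (eif-6 was lost too), and the count with a pooled summit was 18 of 39, beside 41.8% of all protein-coding genes under the same rule. With the IDR set limited to signals above its median, or with iff genes as elongation factors, the initiation factor count was 0. The median pooled rank of the elongation factor genes was 7528.5 over 4 genes. It was 7193.5 over 2 genes with the nearest start and 48 over 5 genes with iff genes included. Without 1 replicate, ranks came from the other replicate's own list. The median was then 22 in replicate 2 and 31 in replicate 1, each over 3 genes. For the initiation factor genes the median pooled rank was 8405.5 over 24 genes. It was 7774 within 500 bp, 7491.5 with the nearest start and 9037 without the iff genes. In the replicate lists it was 9712 in replicate 2 and 10264 in replicate 1. The count in the top 1000 of both replicates was 3 for the top 300 and 5 for the top 5000. No paired analysis was possible because both samples belong to 1 group. Depth is unknown, so a gene without a listed region is not shown to lack binding.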
